A study of Mus musculus with 6 samples.

Results

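The 10 genes described here belong to the Notch pathway: the receptors NOTCH1, NOTCH2 and NOTCH3, the ligands JAG1, JAG2, DLL1 and DLL3, the non-canonical ligand DLK1, and the target genes HES1 and HEY1. They were chosen by name, with earlier results of these data known. All 10 were found among 18417 named genes, each through 1 probe set annotated to that gene alone. The tumours grew from SK-N-BE(2), an established human neuroblastoma cell line with an amplified MYCN gene, placed in the adrenal gland of immunodeficient NSG mice. In the treated group, 3 mice received 400 µg of BL-8040, which blocks the chemokine receptor CXCR4, subcutaneously on each of 14 days, starting 7 days after the cells. The control group held 3 mice with the same cells, and is labelled control. The labels carry the same treatment text on the control samples as on the treated ones, so what the control mice were given is not settled by them, and the age of the animals is not stated. All 6 tumours thus come from 1 cell line in a host without T, B or natural killer cells, and each was read on 1 human expression array.

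Notch receptors are membrane proteins that are activated by ligands of the Jagged and Delta-like families on a neighbouring cell. Cleavage by an ADAM protease and then by γ-secretase frees the intracellular part, which enters the nucleus, binds the DNA-binding protein RBPJ and switches on genes of the HES and HEY families. HES and HEY proteins are transcriptional repressors that restrain neuronal differentiation. In sympathetic neuroblasts and chromaffin cells, DLK1 is known as a surface protein of the immature and adrenal lineage, and in neuroblastoma Notch activity has been tied to the mesenchymal cell state. No human sequence was at hand for these genes, so none is printed.

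Values are log2 signals, and differences are BL-8040 minus control on that scale. Array medians over the named genes lay between 6.01 and 6.07. BL-8040 replicate 3 stood apart from the other 5 arrays on the first principal component, at -22.7 against values from -0.74 to 10.1, and the members' differences are also given without it where this moves them by over 1.5 times. The tumour cells' own markers were present: 9 measured sympathoadrenal genes, among them HAND2, TH, DBH and MYCN, had mean signals between percentiles 61.7 and 99.9 of all named genes. A percentile here only says how bright a probe set is, since probe sets bind with different strength and the levels of different genes are not compared.

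The brightness of the Notch probe sets was very uneven, and no background level was measured against which the dim ones could be set. DLK1 was among the brightest transcripts of the array, at percentile 99.9, and NOTCH2 lay at percentile 96.1. The target genes HEY1 and HES1 were at percentiles 90.3 and 80.8. NOTCH3, NOTCH1, JAG2 and DLL3 sat near the middle, between percentiles 47.9 and 53.5, and DLL1 and JAG1 below it, at 37.6 and 31.5.

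None of the 10 genes differed between the groups after adjustment for all genes tested. In limma, 0 of the 10 members and 0 of 18417 genes (0%) reached a Benjamini-Hochberg adjusted p under 0.05, and 1422 genes reached an unadjusted p under 0.05. The members' differences were small, from -0.30 for NOTCH1 to 0.27 for HES1, with a median of -0.12 beside -0.02 over all named genes. Without BL-8040 replicate 3 these medians were -0.06 and -0.01. After BL-8040, 8 of the 10 stood lower, where 58.5% of all genes did. An unadjusted p under 0.05 was reached by 1 member, NOTCH1, which was lower, and 5.08% of all genes were lower at that p. In the same member alone the 3 treated values lay below all 3 controls, as they did in 9.05% of all genes, so that 1 member in 10 is no result about the set. None of the members was higher at that p, where 2.64% of genes were. At an unadjusted p under 0.1 there were 3 members, NOTCH1, DLL3 and HES1, where 15.0% of genes were. The number of arrays limits the precision, and the 95% intervals reached between 0.16 and 0.37 log2 units to each side of the members' differences.

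**Figure D1:**
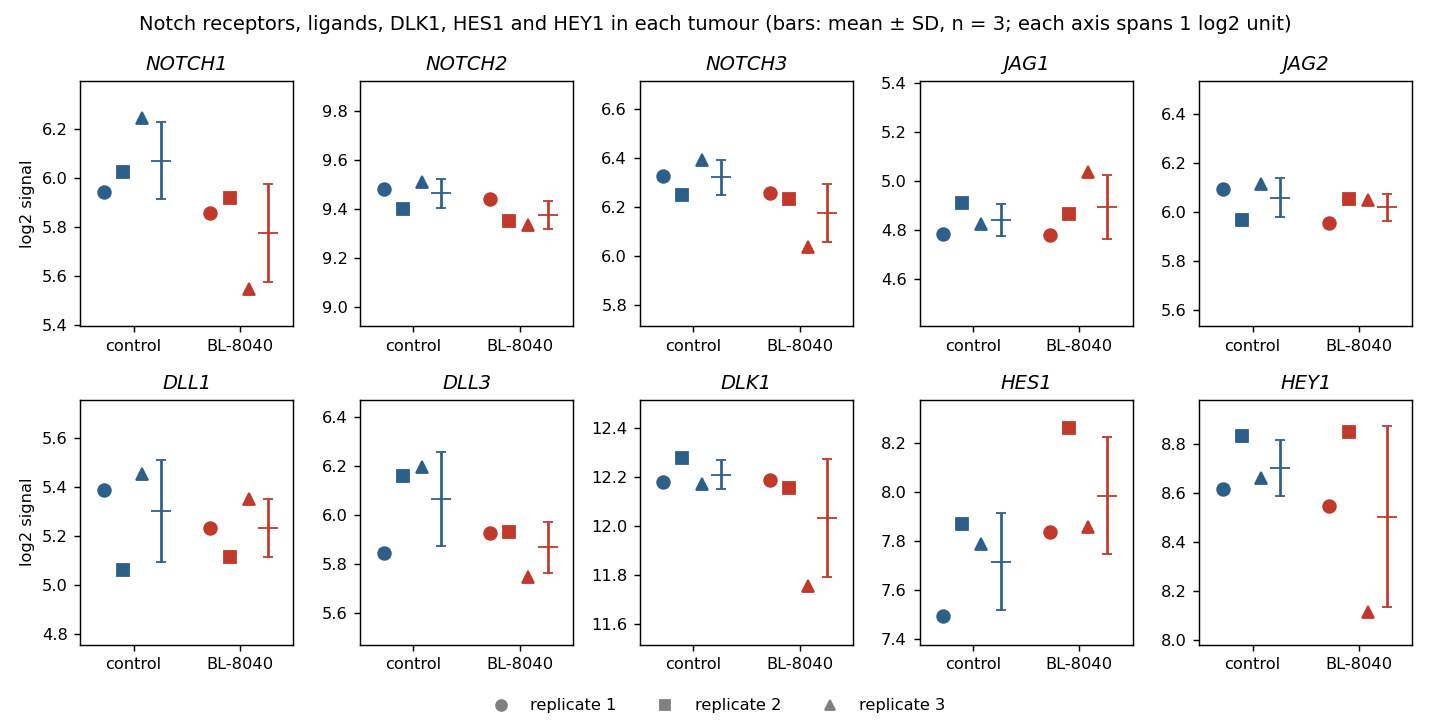
Log2 signal of the 10 Notch genes in each of the 6 tumours, with control in blue, BL-8040 in red and the marker shape giving the replicate; bars show the mean ± SD of 3 arrays, and every vertical axis spans 1 log2 unit. NOTCH1 is the only panel in which the 3 treated points lie below all 3 controls, and BL-8040 replicate 3 is far below the other 2 treated tumours for DLK1 and HEY1.

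Among the receptors, NOTCH1 had the largest difference. This receptor drives the classical pathway in most tissues. Its signals were 5.86, 5.92 and 5.55 in BL-8040 replicates 1 to 3 and 5.94, 6.03 and 6.25 in the controls. The groups did not overlap, though BL-8040 replicate 2 and control replicate 1 were almost level, and the outer values were those of replicate 3 in each group. The means of 5.77 ± 0.20 and 6.07 ± 0.16 (SD, n = 3 each) differed by -0.30 ± 0.12 (SE), or 0.814 times the control level. The 95% interval ran from -0.56 to -0.03, with a limma p of 0.0333 and an adjusted p of 0.644, and the exact permutation p was 0.1, below which a design of 3 against 3 cannot go. Without BL-8040 replicate 3 the NOTCH1 difference was -0.18, without control replicate 3 it was -0.21, and without control replicate 2 it was -0.32, and in none of these 3 fits was NOTCH1 at an unadjusted p under 0.05.

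NOTCH3, a receptor best known from vascular mural cells and able to drive neuroblastoma cells toward a motile, mesenchymal form, likewise had its lowest value in BL-8040 replicate 3 and its highest in control replicate 3. Its signals were 6.26, 6.23 and 6.04 after BL-8040 and 6.33, 6.25 and 6.39 in the controls. The groups overlapped only through BL-8040 replicate 1, which lay just above control replicate 2. The difference was -0.15 ± 0.08 (SE), with a 95% interval from -0.34 to 0.04 and a limma adjusted p of 0.676. It was -0.08 once BL-8040 replicate 3 was left out.

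NOTCH2, the brightest receptor probe set, gave 9.44, 9.35 and 9.33 after BL-8040 and 9.48, 9.40 and 9.51 in the controls. These values lay within 0.2 log2 units of each other, and BL-8040 replicate 1 exceeded control replicate 2. The NOTCH2 difference was -0.09 ± 0.07 (SE), with a 95% interval from -0.25 to 0.07 and a limma adjusted p of 0.746. A further probe set is annotated to NOTCH2 together with NOTCH2NLA and NOTCH2NLB, human-specific partial copies of the NOTCH2 gene, and was looked at after the data were seen. It gave 8.76, 8.75 and 8.88 after BL-8040 and 8.71, 8.43 and 8.67 in the controls. There the treated tumours were all above the controls, by 0.20 ± 0.10 (SE; 95% interval -0.03 to 0.42, exact permutation p = 0.1), where 4.93% of named genes lay wholly above. The probe sets therefore pointed opposite ways, and since the copies share sequence with NOTCH2, the direction of NOTCH2 is uncertain.

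The receptors shared their outer tumours. On their own probe sets, all 3 were lowest in BL-8040 replicate 3 and highest in control replicate 3. This pattern was found in 7.21% of all named genes, and DLL3 had it as well. The probe set that NOTCH2 shares with its copies did not have it, being highest in BL-8040 replicate 3 (8.88) and lowest in control replicate 2 (8.43). With every gene centred on its 6-array mean, the receptors averaged -0.01, -0.03 and -0.22 in the treated tumours and 0.05, 0.03 and 0.19 in the controls. By this average, which leaves out the shared NOTCH2 probe set, the treated tumours were all below the controls. Replicates 1 and 2 of the 2 groups differed by less than 0.1 log2 units.

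Of the 4 ligands, which reach the receptors from the neighbouring cell, 3 stood lower and JAG1 higher, and none was at an unadjusted limma p under 0.05. DLL3, an atypical Delta-like protein that stays mostly inside the cell, inhibits Notch and marks neuroendocrine tumours, was the ligand with the largest difference. Its signals were 5.93, 5.93 and 5.75 after BL-8040 and 5.85, 6.16 and 6.19 in the controls. Control replicate 1 fell among the treated values, while the other 2 controls lay above all of them. DLL3 differed by -0.20 ± 0.11 (SE), with a 95% interval from -0.44 to 0.04 and a limma adjusted p of 0.661. The difference ran from -0.31 without control replicate 1 to -0.13 without control replicate 3. Of the fits with 1 array left out, only that without control replicate 1 had DLL3 at an unadjusted limma p under 0.05.

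DLL1, a canonical Delta-like ligand, gave 5.23, 5.12 and 5.35 after BL-8040 and 5.39, 5.06 and 5.45 in the controls. The control values enclosed all treated ones, and the difference of -0.07 ± 0.11 (SE) had a limma adjusted p of 0.877. It was -0.13 without BL-8040 replicate 3, and with 1 array left out it ran from -0.19 without control replicate 2 to 0.01 without control replicate 3. JAG1, the Jagged ligand that acts in vessels and bile ducts, gave 4.78, 4.87 and 5.04 after BL-8040 and 4.78, 4.91 and 4.83 in the controls. BL-8040 replicate 3 was its highest array and not its lowest, unlike for the receptors, and its difference of 0.05 ± 0.09 (SE; adjusted p = 0.874) became -0.02 without this array. JAG2, the second Jagged ligand, gave 5.95, 6.05 and 6.05 after BL-8040 and 6.09, 5.97 and 6.12 in the controls. The groups were interleaved, and the JAG2 difference of -0.04 ± 0.08 (SE) had a 95% interval from -0.21 to 0.13 and lay between -0.09 and -0.01 with 1 array left out.

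**Figure D2:**
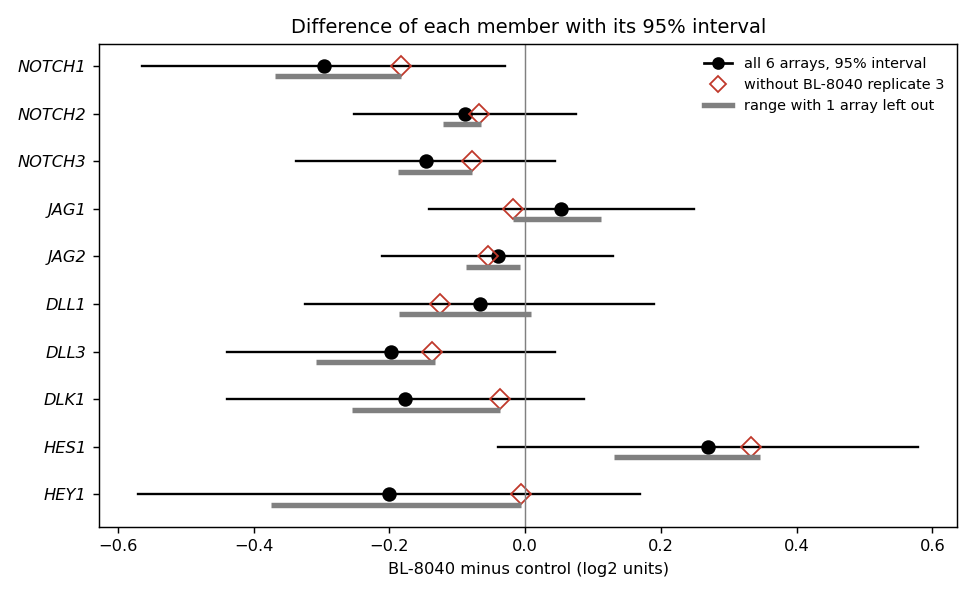
Difference of each of the 10 genes, BL-8040 minus control in log2 units, from all 6 arrays with its 95% limma interval (black), without BL-8040 replicate 3 (open red diamond) and over the range given by leaving out 1 array at a time (grey bar). The interval of NOTCH1 alone leaves out 0, and without BL-8040 replicate 3 the differences of DLK1 and HEY1 are -0.04 and -0.01.

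DLK1 encodes a membrane protein related to the Delta ligands that lacks the domain by which these bind the receptor, and it is a marker of immature adrenal medullary cells. It was very bright in every tumour, with signals of 12.19, 12.16 and 11.76 after BL-8040 and 12.18, 12.28 and 12.17 in the controls. The groups overlapped, with 5 tumours close together and BL-8040 replicate 3 well below them. The DLK1 difference was -0.18 ± 0.12 (SE), or 0.885 times the control level, with a 95% interval from -0.44 to 0.09, a limma adjusted p of 0.703 and an exact permutation p of 0.3. Without BL-8040 replicate 3 it was -0.04, and with that array kept the leave-one-out differences lay between -0.25 and -0.14.

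The targets HES1 and HEY1 stood on opposite sides of 0, neither past the test. HES1, which represses proneural genes and is a direct target of Notch in many cell types, gave 7.83, 8.26 and 7.86 after BL-8040 and 7.49, 7.87 and 7.79 in the controls. BL-8040 replicate 2 was the highest and control replicate 1 the lowest, and the other 4 tumours lay between 7.79 and 7.87, so that the groups overlapped. The means of 7.98 ± 0.24 and 7.71 ± 0.20 (SD, n = 3 each) differed by 0.27 ± 0.14 (SE), or 1.21-fold, with a 95% interval from -0.04 to 0.58. HES1 had a limma adjusted p of 0.652 and an exact permutation p of 0.3. Its difference was 0.13 without BL-8040 replicate 2 and 0.16 without control replicate 1, and lay between 0.31 and 0.35 when any other array was left out.

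HEY1, a related repressor with roles in vessels and in neural precursors, gave 8.55, 8.85 and 8.11 after BL-8040 and 8.62, 8.83 and 8.66 in the controls. The treated tumours held both the highest and the lowest value, so that their SD of 0.37 was over that of the controls, 0.11. HEY1 differed by -0.20 ± 0.16 (SE; 95% interval -0.57 to 0.17, limma adjusted p = 0.746), and by -0.01 without BL-8040 replicate 3. Without BL-8040 replicate 2 the HEY1 difference was -0.37, at an unadjusted limma p under 0.05.

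Set against HEY1 in the same tumour, HES1 was higher after BL-8040 in all 3 treated tumours. This contrast was chosen after the values were seen. The log2 signal of HES1 minus that of HEY1 was -0.71, -0.59 and -0.26 after BL-8040 and -1.13, -0.97 and -0.88 in the controls. The groups did not overlap, and the contrast shifted by 0.47. The exact permutation p of 0.1, the smallest possible here, follows from the lack of overlap. With 1 array left out the contrast lay between 0.34 and 0.57. Its sign could not change there, since the groups do not overlap, so this is no support for it. Of the 45 pairs among the 10 genes, 5 did not overlap between the groups, and 4 of these contained HES1, paired with HEY1, NOTCH1, DLL3 and DLK1. The share among pairs of all named genes was not measured, so this count is no result about the members. Set within each tumour against every other named gene, HES1 did not overlap in 28.5% of cases, all of them higher after BL-8040. The contrast is therefore not particular to HEY1.

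**Figure D3:**
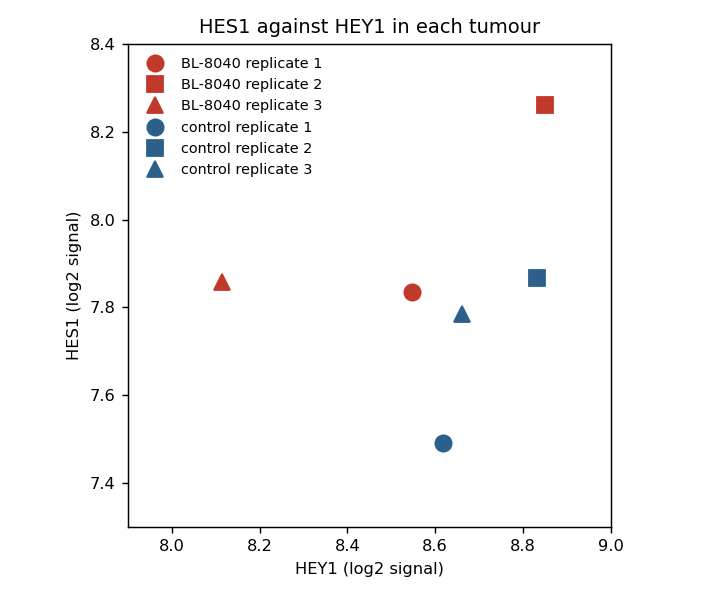
Log2 signal of HES1 (vertical) against HEY1 (horizontal) in each tumour, with control in blue, BL-8040 in red and the marker shape giving the replicate, on axes of equal scale. HES1 minus HEY1 is larger for every red point than for any blue one, with BL-8040 replicate 3 low in HEY1 (8.11) and BL-8040 replicate 2 high in HES1 (8.26).

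HEY1 had the largest SD over the 6 arrays (0.27) of the members at or above the median signal. The genes whose profile was nearest to that of HEY1, out of 9208 at or above the median signal, were TXNIP, an arrestin-like protein that responds to glucose, RGS4, a regulator of G protein signalling, and GBE1, the glycogen branching enzyme. The root mean square difference of their centred profiles from HEY1 over the 6 arrays was 0.0463, 0.0540 and 0.0564 log2 units. All 3 had their lowest value in BL-8040 replicate 3, and their own differences of -0.16, -0.21 and -0.22 did not pass the limma test (adjusted p of 0.803, 0.745 and 0.683). Their low tumour and their differences near that of HEY1 follow from choosing them by likeness over these same arrays.

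Some marker lists shared the low tumour of the receptors, BL-8040 replicate 3, but not their high one. The hypoxia targets and the sympathoadrenal genes averaged highest in control replicate 2. By their averages, other lists went the other way in BL-8040 replicate 3. The centred fibroblast and mural markers averaged highest there, at 0.22, with 5 of 8 at their highest and 2 at their lowest. The mesenchymal state genes also averaged highest there, at 0.07, but 4 of 13 were at their highest and 4 at their lowest. Among all named genes, 16.3% were highest in this tumour. The mesenchymal gene PRRX1 stood out, at 6.53 there against a 6-array mean of 5.27. The endothelial, myeloid and adrenal cortex markers averaged highest there too, at 0.09, 0.09 and 0.08. BL-8040 replicate 3 held the lowest value of 6 of the 10 members (NOTCH1, NOTCH2, NOTCH3, DLL3, DLK1 and HEY1) and of 30.5% of all named genes. It also held the lowest value of 16 of 17 measured hypoxia targets and of all 9 measured sympathoadrenal genes. The centred hypoxia targets averaged -0.12, 0.16 and -0.60 in BL-8040 replicates 1 to 3 and 0.02, 0.40 and 0.14 in the controls. NDRG1, which low oxygen induces, gave 8.03, 8.73 and 6.84 after BL-8040 and 8.69, 9.31 and 8.78 in the controls, and HAND2, a transcription factor of sympathetic neurons, differed by -0.21 ± 0.08 (SE). The sympathoadrenal genes averaged -0.03, 0.10 and -0.48 after BL-8040 and 0.18, 0.26 and -0.03 in the controls. The part of these programmes in the values of the Notch genes was not tested. In whole tumours, fewer cells of a type and less RNA per cell cannot be told apart.

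**Figure D4:**
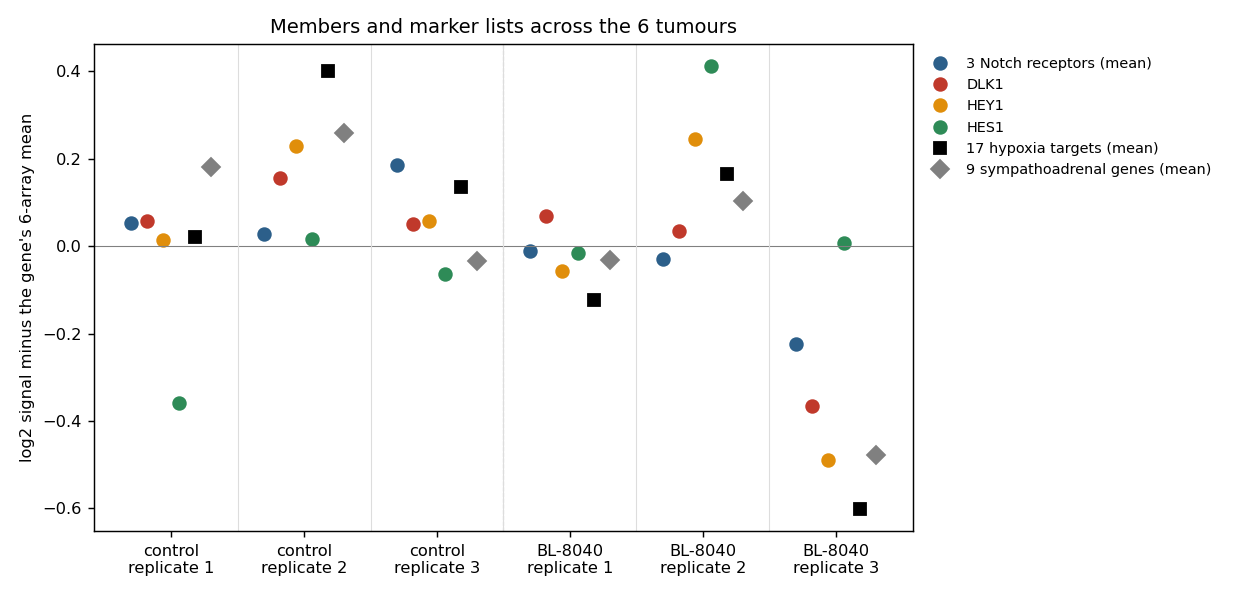
Log2 signal relative to each gene's 6-array mean in the 6 tumours, for the mean of the 3 Notch receptors, for DLK1, HEY1 and HES1, and for the means of 17 hypoxia targets (squares) and 9 sympathoadrenal genes (diamonds). In BL-8040 replicate 3 all but HES1 are at their lowest, with the hypoxia targets at -0.60 and the sympathoadrenal genes at -0.48.

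Host tissue was followed through human probe sets, which see mouse RNA to an unknown extent. Endothelial cells use NOTCH1, NOTCH4, DLL4 and HEY1, and all 8 markers of such cells were measured and dim, at percentiles 12.1 to 46.9. The mean signal of the 8 endothelial markers was 4.44 to 4.66 after BL-8040 and 4.56 to 4.63 in controls. Singly, 6 of them stood lower and 2 higher. In 3 of them, PECAM1, CDH5 and VWF, the treated values lay below all controls, as they did in 9.05% of all genes. The 7 measured of 8 adrenal cortex markers were at percentiles 8.58 to 32.6, with mean signals of 4.05 to 4.18 after BL-8040 and of 4.09 in each control. The 8 fibroblast and mural markers, several of which neuroblastoma cells can express themselves, were bright, with mean signals of 9.32 to 9.67 after BL-8040 and 9.36 to 9.45 in controls, the highest in BL-8040 replicate 3. The 8 myeloid markers had mean signals of 5.15 to 5.32 and 5.15 to 5.27. The part of host cells in the Notch signals was not tested.

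The other parts of the pathway showed no shared direction. Of 63 further genes listed, 58 were measured. Their median difference was -0.02, beside -0.02 for all named genes, with 23 of the 58 higher and 35 lower. In limma 0 of the 58 passed after adjustment. An unadjusted p under 0.05 was reached by 5 of them, 3 higher and 2 lower, where 7.72% of all named genes reached it. That count was 3 without BL-8040 replicate 1 and 3 without control replicate 3. It was 0 of the 36 genes at or above the median signal. All 5 thus had dimmer probe sets, at percentiles from 38.9 for KAT2B to 49.6 for APH1B.

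The other HES and HEY genes held 3 of these 5. HEY2, a repressor of cardiac and vascular development, gave 6.10, 5.83 and 6.33 after BL-8040 and 5.64, 5.84 and 5.53 in the controls. Only control replicate 2 reached the treated range, and HEY2 was 0.42 ± 0.13 (SE) higher, or 1.34-fold, with a limma p of 0.0116 (adjusted p = 0.644). HES2 lay on the other side, at 5.37, 5.30 and 5.33 against 5.61, 5.54 and 5.62. Its treated values lay below all controls, as they did in 9.05% of all genes, and its probe set was dim, at percentile 40.7. The HES2 difference was -0.26 ± 0.07 (SE), and also -0.26 without BL-8040 replicate 3. The limma p of HES2 was 0.00419 and its adjusted p 0.644. HES7, a clock gene of the somites named because it completes the count, differed by -0.22 ± 0.09 (SE), with a limma p of 0.0427 and an adjusted p of 0.644. HES4, HES5, HES6, HEYL and NRARP, the last a feedback inhibitor of Notch, did not reach that p, with differences from -0.13 to 0.05.

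**Figure D5:**
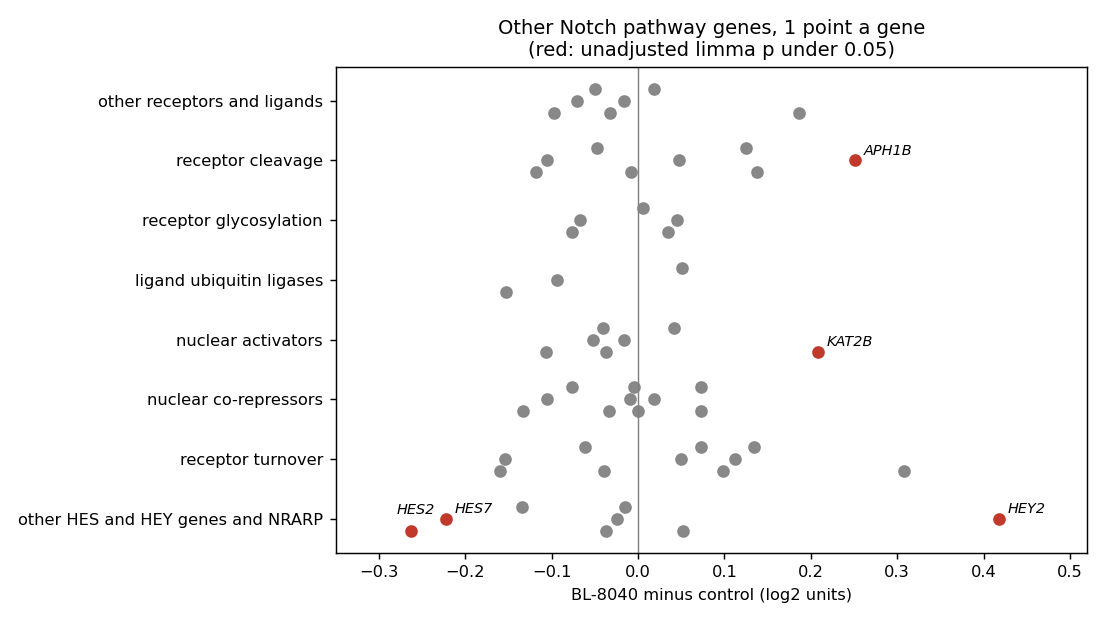
Difference of each of the 58 other Notch pathway genes, BL-8040 minus control in log2 units, grouped by role, with 1 point a gene spread vertically for clarity and red for an unadjusted limma p under 0.05. The points scatter on both sides of 0 in every group, and the red ones are APH1B, KAT2B and HEY2 on the higher side and HES2 and HES7 on the lower.

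Of 8 measured genes of receptor cleavage, 4 were higher and 4 lower. APH1B, a subunit of γ-secretase, gave 6.13, 6.16 and 6.16 after BL-8040 and 5.88, 5.89 and 5.93 in the controls. The group means were 6.15 ± 0.01 and 5.90 ± 0.02 (SD, n = 3 each). The treated values lay above all controls, as they did in 4.93% of all genes, and the probe set was below the median signal, at percentile 49.6. APH1B was 1.19-fold higher, by 0.25 ± 0.07 (SE), with a limma p of 0.00418 and an adjusted p of 0.644, and its difference lay between 0.24 and 0.26 whichever array was left out. Its relative APH1A differed by 0.12 and the other subunits NCSTN, PSEN2 and PSENEN by -0.12, -0.11 and 0.05, so the subunits had no common direction. The proteases ADAM10 and ADAM17, which make the first cut, differed by 0.14 and -0.01, neither at an unadjusted p under 0.05.

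In the nucleus, RBPJ differed by -0.05 and its co-activators MAML2 and MAML3 by -0.02 and -0.04. KAT2B, an acetyltransferase that joins the activating complex, was the 1 of 7 measured activators at an unadjusted p under 0.05. It gave 5.46, 5.35 and 5.55 after BL-8040 and 5.31, 5.19 and 5.25 in the controls. Its treated values were all above the controls, as in 4.93% of all genes, by 0.21 ± 0.08 (SE; limma adjusted p = 0.644). The KAT2B probe set was dim, at percentile 38.9. Of 10 measured co-repressors, 7 were lower and 3 higher, none at that p, and TLE1, a Groucho family co-repressor to which HES proteins bind, had the largest difference at -0.13, or -0.07 without BL-8040 replicate 2.

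The remaining groups held no gene at an unadjusted limma p under 0.05. Among 10 genes of receptor turnover the largest difference was 0.31 ± 0.18 (SE) for DTX2, a Deltex ubiquitin ligase with a dim probe set. It was 0.16 without control replicate 1 and 0.53 without control replicate 2. NUMB, the classical inhibitor of Notch, differed by 0.07. Among 5 glycosylation genes, which tune how receptors respond to ligands, RFNG had the largest difference at -0.08, which lay between -0.13 without control replicate 1 and -0.04 without BL-8040 replicate 3. Of the 3 measured ubiquitin ligases that act on the ligands, MIB2 differed by -0.15, and by -0.06 without BL-8040 replicate 3. Among 7 other receptors and ligands the largest difference was 0.19 ± 0.12 (SE) for DLK2, the paralogue of DLK1, which was 0.06 without control replicate 1 and 0.32 without control replicate 2. NOTCH4 and DLL4 differed by -0.07 and 0.02.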

How the data were processed

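RNA of 6 tumours (200 ng each) was hybridised to Affymetrix human gene arrays, per the labels' protocols. The authors deposited 1 table of log2 values for 33297 probe sets; the log2 scale was read from its values. The submitters' processing notes name Partek 6.6; how background was corrected and probes were normalized and summarized is not stated in these sources, and those steps set how far dim signals are compressed. Groups came from the sample titles. The 19460 probe sets with 1 platform symbol were reduced to the brightest per gene, 18417 genes; 1754 with several symbols and 12083 unnamed were left out. Values were not normalized again. limma 3.58.1 (R 4.3.3; lmFit, eBayes, two-sided) was fitted over all 18417 genes without a block, with Benjamini-Hochberg adjustment; single values had exact permutation tests. The fit was tested on simulated data. Members and lists were chosen with earlier results of these data known. Besides the 10 members, the text names, per list, up to 2 genes with the smallest p at an unadjusted p under 0.05, or else the largest difference; other genes named were chosen after their values were seen. Over all named genes, samples sharing a replicate number did not deviate together (correlations of -0.04, 0.02 and 0.08). Such correlations cannot decide whether single genes follow a pairing. The labels give no batch. Alternatives were filters on dim genes, the mean of probe sets, quantile normalization, median centring, a variance trend, array weights, a replicate block, and leaving out each array.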

Additional observations from a re-analysis of the deposited data

How the results depend on the processing

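No gene was called over all named genes under any of the 14 alternatives, and the members' median difference stayed between -0.15 and -0.06. The count of members at an unadjusted limma p under 0.05, 1 with all arrays, was 0 among the 5 members at or above the median signal, 0 among the 6 with a mean of at least log2 6, and 0 with array weights; NOTCH1 itself is below both dim filters. It was 3 at a p threshold of 0.1, and between 0 and 2 with 1 array left out. The count of other pathway genes, 5, was 0 of 36 at or above the median signal and 1 of 38 at log2 6, and between 3 and 6 with 1 array left out. JAG1 (0.05) turned to -0.0054 with array weights and lay between -0.018 and 0.11 with 1 array left out, DLL1 (-0.07) lay between -0.19 and 0.0084 with 1 array left out, and NOTCH2 to 0.20 on the probe set shared with its copies; the cause was not tested. The replicate number was also used as a block, though correlations over all named genes do not bear it out as a pairing. There 1 member was again at an unadjusted limma p under 0.05, but HES1 (0.27) and not NOTCH1 (-0.30). Quantile normalization and median centring left 8 of 10 members lower. The planned test of each further probe set annotated to a member alone was not run, because every member has a single such probe set. The number of arrays, 3 a group, limits every difference to the intervals given.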

Other observations

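Genes that Notch is known to restrain or to act with were followed as well. Of 4 measured proneural factors, which HES proteins repress, 3 stood lower in the treated tumours (median difference -0.13). NEUROG1, a factor that starts neuronal differentiation, gave 4.90, 4.85 and 4.86 after BL-8040 and 4.92, 5.18 and 5.17 in the controls. Its treated values were all below the controls, as in 9.05% of all genes, with a difference of -0.22 ± 0.09 (SE). Its probe set was dim, at percentile 33.2, and its limma adjusted p was 0.644. Of 13 mesenchymal state genes, 6 were higher and 7 lower, with a median difference of -0.02. FN1, the fibronectin gene, gave 9.90, 9.77 and 10.01 after BL-8040 and 9.61, 9.73 and 9.58 in the controls, 0.25 ± 0.09 (SE) higher (limma adjusted p = 0.644). Among the hypoxia targets, PFKFB4, a regulator of glycolysis with a probe set at percentile 47.7, differed by -0.27 ± 0.09 (SE). It was the 1 of 17 measured hypoxia targets with all treated values below the controls, where 9.05% of all genes had this.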
